A study of Mus musculus with 6 samples.

Results

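The 10 genes described here encode NF-kB subunits, inhibitors of the IkB family and feedback or survival proteins that NF-kB itself induces. They were taken by symbol (Rela, Relb, Nfkb1, Nfkb2, Nfkbia, Nfkbie, Nfkbiz, Tnfaip3, Birc3 and Traf1) from a table of 16583 genes, and all 10 were found and passed the filter on low counts. RNA had been sequenced from the line MC38, which is derived from a mouse colorectal cancer. There were 3 libraries from SRC-1 knockout cells (SRC-1 is the nuclear receptor coactivator encoded by Ncoa1) and 3 libraries from control cells carrying the label KOCtrl. Every culture had received interferon gamma (IFNγ) at 100 ng/mL for 24 h, so every value describes stimulated cells, and no untreated sample was analysed here. The labels name no guide, no clone and no culture of origin for a replicate, so the spread between libraries may be technical. The titles call all 3 knockouts KOSRC-1, while the genotype fields of knockouts 2 and 3 read KOSRC-2 and KOSRC-3. The titles were followed.

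NF-kB is a family of dimeric transcription factors that IkB proteins hold in the cytoplasm. In the canonical pathway the IKK kinase complex marks IkB for degradation and releases dimers such as RelA with p50. In the noncanonical pathway the kinase NIK drives the processing of p100 to p52, which pairs with RelB. Many of the genes that NF-kB turns on encode its own inhibitors, subunits and ubiquitin-editing enzymes, which makes the pathway a set of feedback loops. In tumour cells it is known for survival signalling and for the production of inflammatory mediators.

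Before any value, the DNA just upstream of annotated starts of the members is shown, because several are known targets of the factor they encode or restrain. RefSeq (GRCm38.p6) promoter windows were at hand for 7 of the 10 members, in 10 windows; Nfkb1, Relb and Nfkbiz are named only. The 250 bases before each annotated start were searched on both strands for the 10-base kappa-B consensus. It was found in 4 of the 7 members, Nfkbia, Nfkbie, Nfkb2 and Tnfaip3, and in 3.90% of all 32851 windows of that length (4.46% of 27025 genes). The windows with a match are printed for these 4 genes, for Nfkb2 only the window with the most matches, at chr12:55492648-55492897 on the minus strand (Nfkbia), chr17:45555450-45555699 on the plus strand (Nfkbie), chr19:46304487-46304736 on the plus strand (Nfkb2) and chr10:19015411-19015660 on the minus strand (Tnfaip3). Each runs 5′ to 3′ on the gene's strand and ends at the base before the start, with kappa-B matches in capitals.
Nfkbia: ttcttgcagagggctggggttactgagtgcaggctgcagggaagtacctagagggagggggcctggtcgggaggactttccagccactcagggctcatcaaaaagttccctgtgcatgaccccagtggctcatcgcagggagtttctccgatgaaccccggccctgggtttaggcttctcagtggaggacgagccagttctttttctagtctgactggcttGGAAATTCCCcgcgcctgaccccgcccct
Nfkbie: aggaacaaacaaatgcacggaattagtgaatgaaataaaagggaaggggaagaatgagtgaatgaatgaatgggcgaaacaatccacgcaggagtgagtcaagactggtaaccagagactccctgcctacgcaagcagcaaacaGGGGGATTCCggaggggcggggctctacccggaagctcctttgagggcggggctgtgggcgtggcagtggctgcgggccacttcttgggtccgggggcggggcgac
Nfkb2: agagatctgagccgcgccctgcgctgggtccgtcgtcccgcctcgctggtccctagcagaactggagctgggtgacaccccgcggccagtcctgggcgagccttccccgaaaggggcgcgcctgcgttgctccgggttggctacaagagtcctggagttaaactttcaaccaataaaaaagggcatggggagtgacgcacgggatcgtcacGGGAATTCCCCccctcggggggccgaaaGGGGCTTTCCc
Tnfaip3: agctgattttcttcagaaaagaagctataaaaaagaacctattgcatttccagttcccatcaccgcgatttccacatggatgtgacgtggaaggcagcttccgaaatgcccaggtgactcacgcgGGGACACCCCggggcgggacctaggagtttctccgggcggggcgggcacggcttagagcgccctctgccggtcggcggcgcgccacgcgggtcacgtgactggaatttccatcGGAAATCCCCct

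The Nfkbia match, GGAAATTCCC, lay 29 to 20 bases before the start, and the Nfkbie match, GGGGGATTCC, lay 106 to 97 bases before it. Nfkb2 had 3 matches in this window, which precedes an annotated start inside the gene's interval (46300994 to 46312400). GGGAATTCCC and GGAATTCCCC overlapped one another between 39 and 29 bases before the start, and GGGGCTTTCC lay 11 to 2 bases before it. Its other 2 windows, also inside that interval, held 1 match each, and no other member was searched in as many windows. In Tnfaip3, GGAAATCCCC lay 12 to 3 bases and GGGACACCCC 125 to 116 bases before the start. In the knockout Nfkbie, Nfkb2 and Nfkbia fell and Tnfaip3 was not called. The promoter matches are matches of letters, not measured binding.

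The libraries and the knockout label were checked as follows. Totals ran from 16329459 to 17207625 expected counts. In CPM, counts scaled by library size, Ncoa1 had 16.7, 10.1 and 16.1 CPM in the libraries labelled knockout, against 18.2, 18.5 and 18.0 CPM in controls. In CPM all were below the controls but the difference was not called by edgeR (adjusted p = 0.179). In TPM, the authors' length-scaled values, the groups overlapped, at 3.72, 1.69 and 3.48 in knockouts 1, 2 and 3 and 3.49, 3.42 and 3.48 in controls. Only knockout 2 was below every control in TPM, so the mRNA level does not by itself check the label. Ncoa2 and Ncoa3, whose proteins are also named SRC-2 and SRC-3, were not called either (adjusted p = 0.39 and 0.818). Of 9 colon epithelial markers in the table, all averaged under 1 CPM in both groups, and Epcam, Krt18 and Krt19 were at 0 in the knockouts, so the labelled colorectal origin is not visible in these genes. Of 11 lymphoid and myeloid markers, 10 were under 1 CPM, with summed levels of 4.55 to 6.90 CPM in knockouts and 10.9 to 12.7 CPM in controls. Cd68 led that list, and Ptprc averaged 0.0195 CPM in knockouts and 0.138 CPM in controls. The sum of 9 fibroblast and endothelial markers was 177 to 212 CPM in knockouts and 467 to 497 CPM in controls, and the difference was mostly Dcn, at 104 ± 3.40 CPM in knockouts and 388 ± 8.16 CPM in controls (SD, n = 3 each). Of the 4 genes of that list tested, Dcn and Pdgfrb fell, and Pdgfra (91.6 ± 16.7 CPM in knockouts, 83.9 ± 7.87 CPM in controls) and Acta2 were not called. The summed levels of all 3 marker lists were lower in knockouts, as were 7 of the 10 members, and their part in the results was not tested.

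Knockout 2 stood apart from the other knockout libraries over all genes, and this touches several members. The correlation of log CPM across genes, which are not independent replicates, was 0.996 between knockouts 1 and 3, 0.978 and 0.981 between knockout 2 and each of them, and 0.994 to 0.995 among controls. The libraries also differed in how levels followed transcript length. The median of the 25% of genes with the longest transcripts minus that of the 25% with the shortest, in log2 CPM relative to the mean of all libraries, was at 0.392, -0.367 and 0.293 in knockouts 1, 2 and 3 and at -0.154 to -0.0682 in controls. The same difference between the GC-richest and GC-poorest 25% was -0.184, 0.391 and -0.150 in knockouts 1, 2 and 3 and -0.0590 to 0.0523 in controls.

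Across the 10 members, 7 fell in SRC-1 knockout cells, 1 rose and 2 did not pass the test. A gene is said to have risen or fallen where edgeR's quasi-likelihood test gave a Benjamini-Hochberg adjusted p under 0.05 over the 11656 genes tested. Of all tested genes, 35.7% were called, 17.1% up and 18.5% down, so 8 calls among 10 members stand against a background of about 1 gene in 3. The median log2 fold change (knockout minus control) was -0.35 over the members and 0.02 over all tested genes. The members were chosen with earlier results of these data known, so neither contrast with all genes is independent of that choice. The members that fell were Nfkbie, Traf1, Relb, Birc3, Nfkb2, Nfkbia and Rela, and the member that rose was Nfkbiz. In CPM the libraries of the 2 groups did not overlap for 8 members, 1 above and 7 below the controls, which was also the case for 51.4% of all tested genes, 24.8% above and 26.5% below. Limma on log2(TPM + 1), where TPM are the authors' length-scaled values, called 27.5% of its genes, 13.1% up and 14.4% down, and 4 members, Relb, Nfkb2, Nfkbie and Traf1, all lower in knockouts. Since the samples are bulk RNA, fewer cells expressing a gene and less RNA per cell cannot be told apart.

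**Figure D1:**
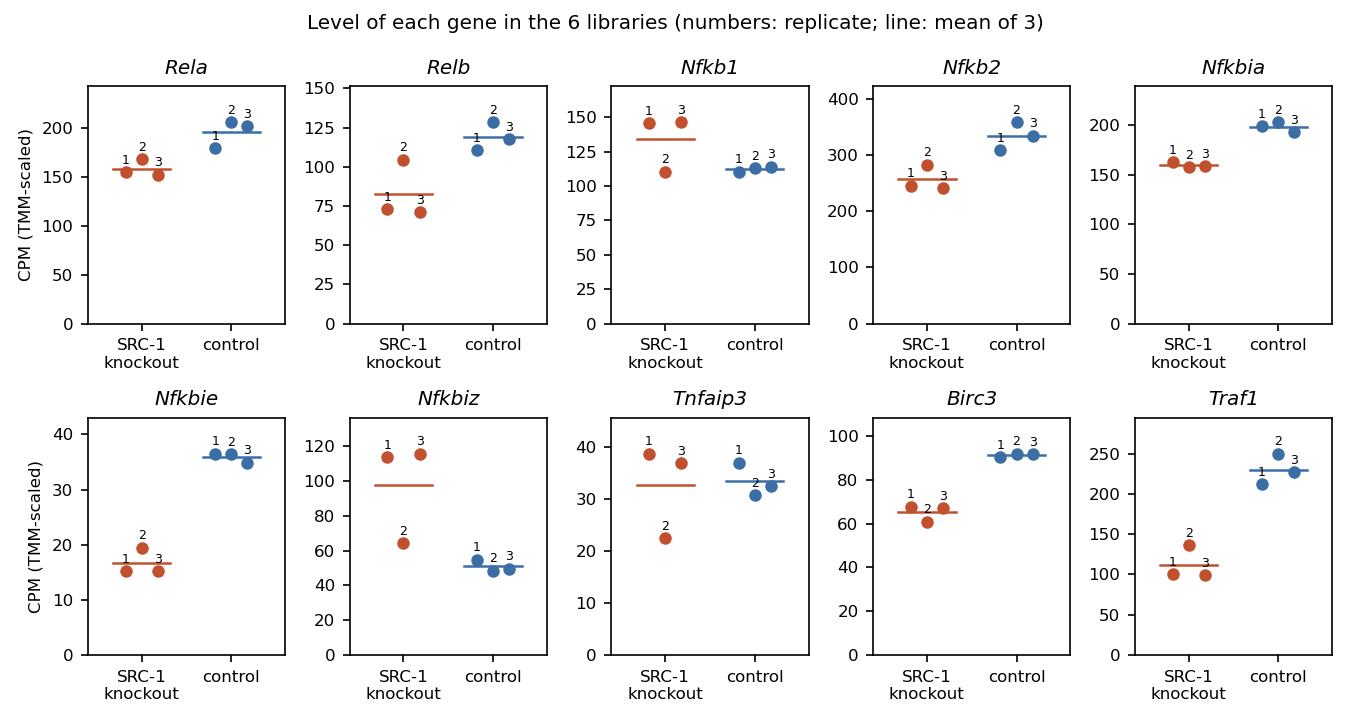
CPM of each of the 10 members in every library, with SRC-1 knockout to the left of control in each panel and bars at the group means. In 7 panels all knockout points lie below the control points, and in the Nfkbiz panel all lie above. Knockout 2 stands away from knockouts 1 and 3 for Nfkbiz, Tnfaip3, Relb and Traf1, and also for Nfkb1 and Nfkbie.

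The subunits are described first. Rela (gene 19697, chromosome 19, 5637442 to 5648134, GRCm38.p6) encodes p65, the main transactivating subunit of the canonical pathway. It had 155, 168 and 153 CPM in knockouts 1, 2 and 3, against 179.6, 206 and 202 CPM in controls 1, 2 and 3. Every knockout library was below every control, and Rela fell 1.24-fold (log2 fold change -0.30, 95% interval -0.50 to -0.11, SE 0.0836, adjusted p = 0.0268). The call was lost without control 2, control 3, knockout 1 or knockout 3 (adjusted p = 0.119, 0.115, 0.0763 and 0.0979) and in limma on log2(TPM + 1) (adjusted p = 0.0629).

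Relb (gene 19698, chromosome 7, 19606217 to 19629438) encodes the noncanonical partner of p52. It had 73.0, 104 and 71.1 CPM in the knockouts, against 111, 128 and 118 CPM in the controls. The groups did not overlap, but knockout 2 lay closer to control 1 than to the other knockouts. Relb fell 1.44-fold (log2 fold change -0.52, 95% interval -0.89 to -0.15, SE 0.157, adjusted p = 0.0379). Leaving out any one library other than knockout 2 took the adjusted p above 0.05 (0.0794 to 0.132), whereas without knockout 2 the log2 fold change was -0.72 (adjusted p = 2.19e-11).

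Nfkb2 (gene 18034, chromosome 19, 46300994 to 46312400) encodes p100, the precursor of p52 and itself an inhibitor that holds RelB. It had 246, 284 and 242 CPM in the knockouts, against 309.97, 359 and 335 CPM in the controls, again without overlap. Nfkb2 fell 1.30-fold (log2 fold change -0.38, 95% interval -0.60 to -0.16, SE 0.0944, adjusted p = 0.0191). The call was lost without control 2, control 3, knockout 1 or knockout 3 (adjusted p = 0.0881, 0.0745, 0.0592 and 0.0737). It is the one member whose deposited counts were not whole numbers in 5 of 6 libraries. RefSeq places Psd, a protein-coding gene with 374 to 580 expected counts per library, across 316 bases of it, and the long noncoding RNA 4833438C02Rik across 2045 bases, so part of the reads may be shared.

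Nfkb1 (gene 18033, chromosome 3, 135584655 to 135691969) encodes p105, the precursor of p50, and RefSeq places a long noncoding RNA, Gm46827, over 5234 bases of it. It had 146, 111 and 146 CPM in the knockouts, against 111, 113 and 114 CPM in the controls. Knockouts 1 and 3 were above every control and knockout 2 was level with the lowest, so the groups overlapped. Nfkb1 was not called: its log2 fold change was 0.25 (SE 0.117, 95% interval -0.02 to 0.53, adjusted p = 0.134). It is thus the one subunit among the 4 whose fold change was above 0, while Rela, Relb and Nfkb2 fell.

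The fifth subunit, Rel, which encodes c-Rel and is best known from lymphocytes, was scarce here. It averaged 8.89 ± 2.09 CPM in knockouts and 11.5 ± 0.374 CPM in controls (SD, n = 3 each), with no call (log2 fold change -0.37, adjusted p = 0.142).

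Among the IkB proteins, Nfkbia and Nfkbie fell and Nfkbiz rose. Nfkbia (gene 18035, chromosome 12, 55489409 to 55492647) encodes IkBα, the inhibitor that NF-kB resynthesises fastest after it is degraded. It had 163, 157 and 159 CPM in the knockouts, against 199, 203 and 193 CPM in the controls. The libraries of each group lay close together and the groups were apart. Nfkbia fell 1.24-fold (log2 fold change -0.32, 95% interval -0.47 to -0.16, SE 0.0648, adjusted p = 0.00871). After a correction that removes each library's own trends with GC content and transcript length, the groups overlapped, at 189, 141 and 178 CPM in knockouts and 191, 189 and 185 CPM in controls. The change was then -0.16 on the log2 scale (adjusted p = 0.23), so the fall of Nfkbia was not kept under that correction. It was not called without control 2 (adjusted p = 0.0556) or in limma on log2(TPM + 1) (adjusted p = 0.134) either.

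Nfkbie (gene 18037, chromosome 17, 45555700 to 45563169) encodes IkBε, an inhibitor known for slower feedback. It had 15.2, 19.4 and 15.2 CPM in the knockouts, against 36.5, 36.4 and 34.8 CPM in the controls. All knockouts lay well below all controls. Nfkbie fell 2.16-fold, more than any other member (log2 fold change -1.11, 95% interval -1.39 to -0.84, SE 0.116, adjusted p = 0.000625). Of all tested genes, 3.71% had a fold change this low or lower. In TPM it averaged 10.6 ± 0.121 in knockouts and 22.1 ± 0.471 in controls (SD, n = 3 each).

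Nfkbib, which encodes IkBβ and was on the list of other subunits and IkB proteins, fell as well. It had 64.4, 94.0 and 60.9 CPM in the knockouts, against 161, 182 and 159 CPM in the controls. The groups were far apart, and the log2 fold change was -1.20 (SE 0.170, 95% interval -1.60 to -0.80, adjusted p = 0.00199), a 2.29-fold fall. The 3 classical inhibitors that hold dimers in the cytoplasm, Nfkbia, Nfkbib and Nfkbie, were thus all lower in knockouts in the main fit. The fall of Nfkbia was not kept with the length and GC trends removed (edgeR adjusted p = 0.23). Nfkbib and Nfkbie fell by more than Nfkbia in the fitted values, a difference between genes that was not tested.

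Nfkbiz (gene 80859, chromosome 16, 55811375 to 55838954) encodes IkBζ, an inducible nuclear IkB protein that binds p50 and helps to switch on secondary response genes. It had 114, 64.2 and 116 CPM in the knockouts, against 54.8, 48.4 and 49.7 CPM in the controls. Every knockout was above every control, but knockout 2 was much nearer to the controls than to knockouts 1 and 3. Nfkbiz rose 1.92-fold (log2 fold change 0.94, 95% interval 0.43 to 1.45, SE 0.218, adjusted p = 0.0145), and 3.52% of tested genes had a fold change this high or higher. The call was lost without control 2 or control 3 (adjusted p = 0.0638 and 0.0604) and in limma on log2(TPM + 1) (adjusted p = 0.0693). Bcl3, another nuclear IkB protein, which binds p50 and p52 dimers, was not called, at 18.3 ± 3.76 CPM in knockouts and 22.6 ± 3.06 CPM in controls (SD, n = 3 each; adjusted p = 0.199).

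Of the feedback and survival targets, Traf1 and Birc3 fell and Tnfaip3 did not pass the test. Traf1 (gene 22029, chromosome 2, 34941750 to 34961812) encodes an adaptor that joins TRAF2 at TNF family receptors and is a classical NF-kB target. It had 101, 136 and 98.7 CPM in the knockouts, against 212, 249.9 and 227 CPM in the controls. Even the highest knockout, knockout 2, was well below the lowest control. Traf1 fell 2.05-fold (log2 fold change -1.04, 95% interval -1.37 to -0.71, SE 0.140, adjusted p = 0.00162), and 4.26% of tested genes had a fold change this low or lower. RefSeq places a long noncoding RNA, Gm52552, over 10518 bases of the locus. No use of strand in counting is stated, so reads of the pair could not be separated.

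Birc3 (gene 11796, chromosome 9, 7847468 to 7873205) encodes cIAP2, a ubiquitin ligase that protects cells from TNF-induced death. It had 67.7, 60.9 and 67.2 CPM in the knockouts, against 90.5, 91.9 and 91.8 CPM in the controls. Both groups were tight and apart. Birc3 fell 1.40-fold (log2 fold change -0.49, 95% interval -0.66 to -0.31, SE 0.0749, adjusted p = 0.0026). It kept its call without any one library, and in limma on log2(TPM + 1) it just missed the threshold (adjusted p = 0.0528).

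Tnfaip3 (gene 21929, chromosome 10, 19000910 to 19015410) encodes A20, the ubiquitin-editing enzyme that shuts off signalling upstream of IKK. It had 38.6, 22.4 and 36.8 CPM in the knockouts, against 36.9, 30.7 and 32.5 CPM in the controls. Knockout 2 was below every control, while knockouts 1 and 3 lay among or just above them. The log2 fold change was -0.03 (SE 0.203, 95% interval -0.51 to 0.44, adjusted p = 0.919), an interval wide enough to hold a change of the size seen for Rela in either direction.

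**Figure D2:**
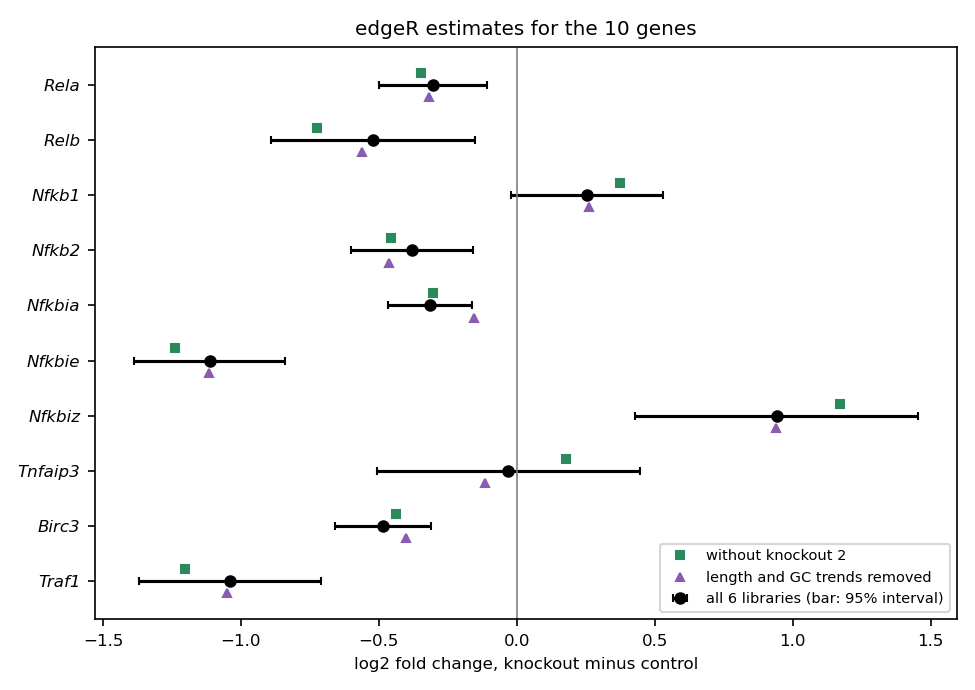
Log2 fold change, SRC-1 knockout minus control, of the 10 members in edgeR. Dots with 95% intervals use all 6 libraries, squares leave out knockout 2, and triangles show the fit corrected for each library's trends with GC content and transcript length. Nfkbie and Traf1 lie lowest and Nfkbiz highest under all 3 fits, and Nfkbia is at -0.16 with the trends removed, against -0.32 without that correction.

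Relative to the mean of knockouts 1 and 3, knockout 2 was lower in log2 CPM by a difference of -0.84 for Nfkbiz, -0.75 for Tnfaip3 and -0.40 for Nfkb1. It was higher by 0.54 for Relb, 0.45 for Traf1 and 0.36 for Nfkbie. The remaining 4 members differed by 0.22 or less, and the median absolute difference over all tested genes was 0.29. With the length and GC trends removed, the difference was -0.78 for Nfkbiz and -0.39 for Tnfaip3, so that of Nfkbiz was nearly as large and that of Tnfaip3 was smaller. For Nfkbia the same correction took the difference to -0.38, against -0.03 before it.

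Without knockout 2 all 10 members were called, 3 up and 7 down, but so were 69.6% of all tested genes, 34.6% up and 35.0% down. This smaller comparison of 2 knockouts with 3 controls gave log2 fold changes of 1.17 for Nfkbiz (adjusted p = 6.31e-16), 0.38 for Nfkb1 (adjusted p = 6.67e-08) and 0.18 for Tnfaip3 (adjusted p = 0.0333) in edgeR. Among the members that fell, Relb stood at -0.72, Traf1 at -1.20 and Nfkbie at -1.24. Each of these 3 falls was larger than with all 6 libraries. The comparison without knockout 2 was not corrected for the length and GC trends. In values with those trends removed, Tnfaip3 had 34.4 and 33.5 CPM in knockouts 1 and 3, against 37.4, 31.9 and 32.8 CPM in controls. Its groups thus overlapped there, whereas Nfkb1 and Nfkbiz in knockouts 1 and 3 stayed above every control. With the trends removed in all 6 libraries, 51.3% of tested genes were called, 27.2% up and 24.1% down, and 8 members were called. Nfkb1 was then called as higher (0.26, adjusted p = 0.0128), and Nfkbia was not called.

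The fold changes altered the order of the members' levels, compared per transcript length as TPM. In knockouts the order of mean TPM was Nfkbia 169, Nfkb2 120.1, Rela 92.8, Traf1 71.4, Relb 58.1, Nfkb1 49.2, Nfkbiz 41.4, Birc3 35.9, Tnfaip3 11.3 and Nfkbie 10.6. Libraries of neighbours overlapped for Relb with Nfkb1, Nfkb1 with Nfkbiz, Nfkbiz with Birc3, and Tnfaip3 with Nfkbie. In controls the order was Nfkbia 201, Nfkb2 153, Traf1 143, Rela 111, Relb 81.8, Birc3 48.3, Nfkb1 39.4, Nfkbie 22.1, Nfkbiz 19.8 and Tnfaip3 10.8. Only Nfkb2 and Traf1 overlapped there. Nfkbia, the IkBα gene, led both orders, and Traf1 stood below Rela in knockouts and above it in controls.

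Ratios within a library set the members, with Nfkbib and Rel added, against each other, and are given as descriptions with no test. Nfkbia, Nfkbib and Nfkbie summed to 288, 251 and 271 TPM in knockouts, against 421, 437 and 415 TPM in controls. Nfkbib, which is not a member, made up much of that difference. It averaged 89.9 TPM in knockouts and 201 TPM in controls, against 169 and 201 TPM for Nfkbia and 10.6 and 22.1 TPM for Nfkbie. The 5 subunit genes, Rel included, summed to 342, 295 and 330 TPM in knockouts, against 363, 403 and 397 TPM in controls. Inhibitor mRNA, Nfkbib included, per subunit mRNA was thus 0.842, 0.852 and 0.823 in knockouts, against 1.16, 1.08 and 1.05 in controls. Knockout 2 lay with the other knockouts in this ratio. The ratio was not computed without Nfkbib, so it does not describe the member inhibitors alone.

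The TPM ratios that involve Nfkb1 and Nfkbiz were less even. Nfkb1 per Rela was 0.580, 0.402 and 0.592 in knockouts, against 0.378, 0.341 and 0.347 in controls. Nfkb1 per Nfkb2 was 0.455, 0.303 and 0.461 in knockouts, against 0.272, 0.244 and 0.258 in controls. In both, all knockouts were above all controls and knockout 2 was the nearest to them. These TPM were not corrected for the libraries' length and GC trends. With the trends removed, knockouts 1, 2 and 3 had 140, 122 and 141 CPM for Nfkb1 and 166, 146 and 162 CPM for Rela. Knockout 2 was thus the lowest for both, but not for Nfkb2, at 248, 253 and 247 CPM. The ratios were not recomputed from the corrected values. Nfkbie per Nfkbia was 0.0567, 0.0750 and 0.0583 in knockouts, against 0.111, 0.109 and 0.110 in controls. Nfkbiz per Nfkbia was 0.272, 0.157 and 0.284 in knockouts, against 0.105, 0.0911 and 0.0990 in controls. The nuclear IkBζ transcript thus took a larger place beside IkBα, and IkBε a smaller one.

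**Figure D3:**
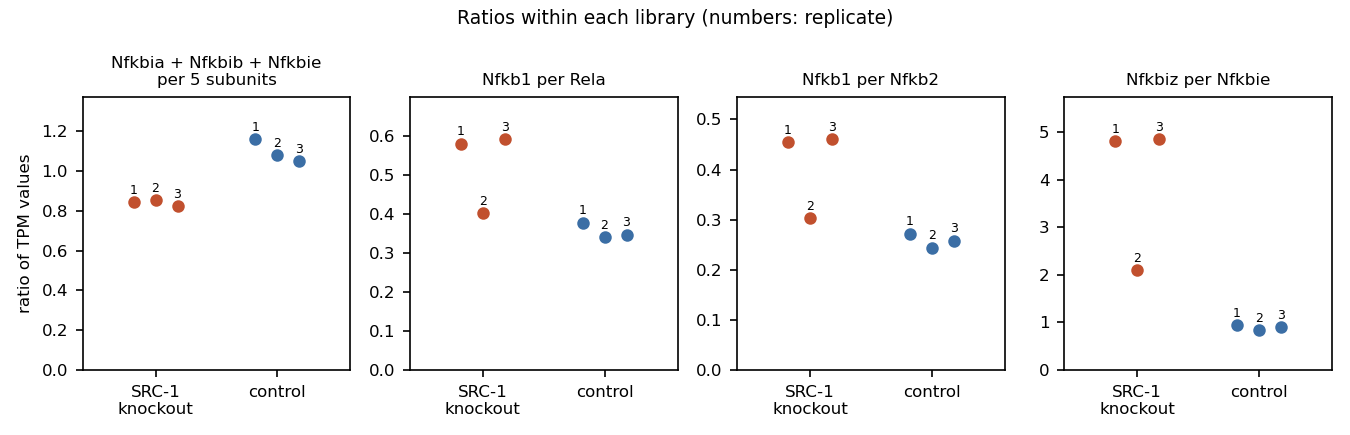
Ratios of TPM within each library, with SRC-1 knockout left of control. Classical inhibitors per subunit, with the non-member Nfkbib included, are at 0.823 to 0.852 in knockouts and 1.05 to 1.16 in controls. In the ratios with Nfkb1 or Nfkbiz on top knockout 2 is the knockout nearest to the controls. The TPM are not corrected for length and GC trends.

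The rest of the pathway was described from 6 lists of 92 other genes, of which 82 were tested. Of these, 11 rose, 20 fell and 51 were not called, 37.8% called beside the 35.7% of all genes, with a median log2 fold change of -0.04. The pooled share lay close to the background, while the single lists ranged from 9.09% of kinases, 20% of other subunits and IkB proteins and 29.4% of ubiquitin enzymes to 45.5% of receptors and ligands, 46.7% of adaptors and 52.2% of other targets. Without knockout 2, 65 of 84 tested were called (77.4%, beside 69.6% of all genes), 28 up and 37 down.

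Among 11 receptors and ligands, 3 rose and 2 fell. Without knockout 2, 5 rose and 4 fell (81.8% called, beside 69.6% of all genes). Tlr2, the receptor for bacterial lipoproteins, had 85.6, 88.5 and 90.6 CPM in the knockouts, against 27.7, 24.8 and 29.1 CPM in the controls. It rose 3.24-fold, with tight and widely separated groups (log2 fold change 1.70, SE 0.0882, adjusted p = 4.04e-05). Tnfsf10, which encodes the death ligand TRAIL, rose by 1.23 on the log2 scale (adjusted p = 0.00448). Tnfrsf12a, the receptor for TWEAK and an activator of the noncanonical pathway, had 127, 200.3 and 132 CPM in the knockouts, against 309.7, 362 and 325 CPM in the controls. It fell 2.17-fold (log2 fold change -1.12, adjusted p = 0.00338). Eda2r, a receptor for an ectodysplasin isoform, fell as well (log2 fold change -1.06, adjusted p = 0.00287).

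Of 15 adaptors, 2 rose and 5 fell. The excess of falls was lost without control 2 or control 3 (2 rose and 1 fell each) and without control 1 (2 rose and 2 fell). Sqstm1, which encodes the scaffold and autophagy receptor p62, averaged 825 ± 88.6 CPM in knockouts and 1826 ± 86.0 CPM in controls (SD, n = 3 each). It fell 2.21-fold (log2 fold change -1.15, adjusted p = 0.000333). Ticam1, the Toll-like receptor adaptor TRIF, fell by less (log2 fold change -0.44, adjusted p = 0.0117), and Myd88, Traf2 and Irak1 were the other adaptors that fell. The Ticam1 call was lost without control 2 or control 3 (adjusted p = 0.0606 and 0.0532). Ripk2, the kinase below NOD receptors, rose (log2 fold change 0.54, adjusted p = 0.00184), as did Traf5 (0.53, adjusted p = 0.00541).

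The IKK complex gave no call. Chuk (IKKα) had a log2 fold change of 0.01 (95% interval -0.34 to 0.37, adjusted p = 0.961), Ikbkb (IKKβ) of -0.05 (95% interval -0.23 to 0.13, adjusted p = 0.639) and Ikbkg (NEMO) of 0.10 (95% interval -0.09 to 0.29, adjusted p = 0.373). Map3k14, which encodes NIK, was the only one of 11 kinases called. It stood at 27.9 ± 1.87 CPM in knockouts and 22.8 ± 0.898 CPM in controls (SD, n = 3 each), 1.22-fold higher (adjusted p = 0.0400). This call lay near the threshold and was lost in 12 of 17 alternatives. Without knockout 2, 7 of the 11 kinases were called, 6 up and 1 down. That is 63.6%, below the 69.6% of all genes called in the same fit.

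Of 17 ubiquitin ligases and deubiquitinases, 1 rose and 4 fell. Without knockout 2, 5 rose and 7 fell (70.6% called, beside 69.6% of all genes). In contrast, 2 were called without control 1 or control 2 and 3 without control 3 or knockout 3. Rnf31, the catalytic subunit of the linear ubiquitin ligase complex, averaged 78.5 ± 4.73 CPM in knockouts and 125 ± 3.99 CPM in controls (SD, n = 3 each; log2 fold change -0.67, adjusted p = 0.000781). Rbck1, another subunit of that complex, also fell (log2 fold change -0.52, adjusted p = 0.0221), as did the A20-binding Tnip2 (-0.44, adjusted p = 0.0141) and the NF-kB suppressor N4bp1 (-0.47, adjusted p = 0.00486). Zc3h12a, which encodes the endonuclease Regnase-1, rose (log2 fold change 0.49, adjusted p = 0.0141). The Rbck1 call was lost without any one library other than knockout 2 (adjusted p = 0.063 to 0.0872), that of Tnip2 without control 1, 2 or 3 or knockout 3 (0.0517 to 0.0611), and that of Zc3h12a without control 1 or control 2 (0.0685 and 0.0638).

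Of 23 other target genes, 4 rose and 8 fell. Without knockout 2 all 25 that were then tested were called, 8 up and 17 down, beside 69.6% of all genes. Without control 1, 9 of 24 were called, 3 up and 6 down. Without control 2, 8 of 23 were called, and without control 3, 8 of 24, each time 3 up and 5 down. Over all genes, calls without control 1, 2 or 3 numbered 2576, 2406 and 2409, against 4157 with all libraries. Lif, a cytokine of the interleukin 6 family, averaged 110 ± 7.53 CPM in knockouts and 209 ± 9.34 CPM in controls (SD, n = 3 each; log2 fold change -0.93, adjusted p = 0.000281). Icam1, an adhesion molecule, fell 2.03-fold (log2 fold change -1.02, adjusted p = 0.00062), and the early response gene Ier3 fell 1.88-fold (log2 fold change -0.91, adjusted p = 0.00113). Cxcl1, Cxcl2, Cflar, Ptgs2 and Lcn2 were the other targets that fell, and Ccl5, Sdc4 and C3 rose. Mmp9, a secreted gelatinase, rose 2.18-fold (log2 fold change 1.13, adjusted p = 6.96e-05). Ccl2, the target with the highest mean TPM, was not called, at 918 ± 44.8 CPM in knockouts and 1003 ± 59.9 CPM in controls (SD, n = 3 each; adjusted p = 0.271). The target list, like the members, held genes that moved in opposite directions in the same libraries.

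**Figure D4:**
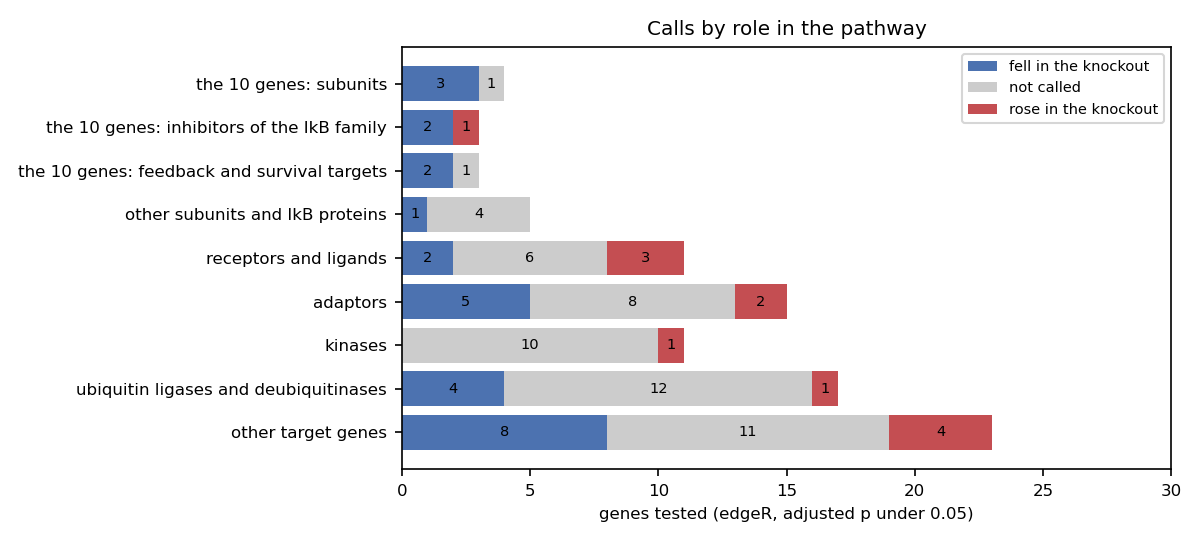
Number of tested genes, for the 10 members by role and for each pathway list, that fell, were not called or rose in SRC-1 knockout against control (edgeR, adjusted p under 0.05). The other target list holds 8 falls and 4 rises (5 falls and 3 rises without control 2 or control 3). The adaptor list holds 5 falls and 2 rises (1 fall and 2 rises without control 2 or control 3). The kinase list holds 1 rise among 11 genes.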

How the data were processed

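RNA-seq values of 6 MC38 libraries were analysed, grouped by sample title. The deposited table gives read counts, FPKM and TPM per gene, per the file headers. The read counts were taken to be expected counts, since only 88.9% of the deposited values were whole and the others were fractions. The authors' FPKM were not used, nor were the 6 deposited group averages. HISAT2, StringTie, SAMtools and the build GRCm38.p6 are named in the submitters' processing notes, with no versions. Which program made which value is not stated there, and per the labels' protocols the NEBNext Ultra kit is not said to mark strand.

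Expected counts were rounded. edgeR 4.0.16 in R 4.3.3 kept 11656 genes (filterByExpr, minimum count 10, minimum total 15), scaled by TMM and applied the robust quasi-likelihood test, two-sided, with Benjamini-Hochberg adjustment over all of them. CPM used TMM factors. Library totals were 16329459 to 17207625 expected counts, and counting error was not measured apart from other spread. The tests were run on simulated counts, where false calls made up 3.39% of calls in edgeR, 8.7% in DESeq2 and 6.49% in limma. The simulation gave every gene the same dispersion and had no library set apart and no length or GC trends. It therefore does not show how the tests behave with a library like knockout 2. Alternatives comprised upper-quartile and RLE scaling, dropping the filter, at least 10 mean CPM, DESeq2 1.42.0, limma 3.58.1 on log2(TPM + 1) or log2(TPM + 0.1), for genes of at least 1 mean TPM or all, a replicate block, removal of per-library trends in transcript length and GC (splines with 5 degrees of freedom, lengths known for 98% of tested genes), and leaving out each library. Gene coordinates and promoters are RefSeq GRCm38.p6, 1-based; 16531 gene identifiers matched. The members and lists were chosen with earlier results of these data known. All members were named, with Ncoa1, Ncoa2, Ncoa3, Rel, Nfkbib, Bcl3, Chuk, Ikbkb and Ikbkg. From each other list, up to 4 called genes of smallest adjusted p and the gene of highest mean TPM were named; further called genes were named after their values were seen.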

Additional observations from a re-analysis of the deposited data

How the results depend on the processing

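Nfkbie and Traf1 were called as lower in all 17 alternatives (log2 fold change -1.24 to -1 and -1.20 to -0.96). The number of genes called was 2406 to 8208 when one library was left out, against 4157 with all. Members called numbered 8 with all libraries, 4 in each of the 3 limma fits on TPM, and 3 to 10 when one library was left out. In limma on log2(TPM + 1), which called 27.5% of genes, Rela, Nfkbia, Nfkbiz and Birc3 were not called; the cause was not tested. Without control 2, 3 members were called, beside 2406 of all 11789 genes tested, and without control 3, 4 members, beside 2409 of 11793. Without knockout 1 or knockout 3, 5 members were called, beside 3179 and 2850 of 11790 genes. Calls thus fell over all genes as well as among the members. Pathway list genes called numbered 18 to 65 when one library was left out, against 31. Ncoa1 was called with the length and GC trends removed (log2 fold change -0.463) and with that and the replicate block (-0.468), and ranged from -0.475 to -0.152 when one library was left out. Over 28 named genes that are not members, 420 of 476 recomputed values kept their direction and side of the threshold. Signs turned for 4 genes near 0, none of them called with all libraries: Tnfaip3 (-0.17 to 0.177 when one library was left out), Ncoa3 (-0.105 to 0.0717, and 0.0545, 0.0551 and 0.0545 in limma on TPM), Chuk (-0.0858 to 0.165, and -0.00265 with the replicate block) and Ccl2 (0.0472 with the trends removed, 0.048 with the block as well). The replicate numbers were not taken as pairs: same-numbered samples correlated in their deviations at 0.161, 0.261 and 0.0401. With the replicate block 4337 genes, 8 members and 34 pathway list genes were called. Rounded counts of the members ran from 254 (Nfkbie, knockout 1) to 6069 (Nfkb2, control 2). How far counting error or the spread between 3 libraries a group limited the tests was not measured.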
